A study of Homo sapiens with 4 samples.

Results

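The 10 genes described here encode factors of the hypoxia-inducible factor (HIF) system and a selection of their targets, listed by symbol: *HIF1A*, *EPAS1*, *ARNT*, *EGLN1*, *EGLN3*, *VEGFA*, *CA9*, *ADM*, *NDRG1* and *BNIP3*. All 10 were found among the 57905 genes of the count tables and all 10 were among the 16416 genes tested. They were measured by sequencing of polyadenylated RNA in U87MG cells, an established human glioblastoma (GBM) line, labelled wild type. The samples were 2 untreated control samples and 2 samples given 50 nM chaetocin, a fungal metabolite that inhibits histone methyltransferases, for 24 h. Chaetocin was dissolved in DMSO whereas control cells were left untreated, so the drug and its solvent cannot be told apart. The labels name no oxygen level and no hypoxic treatment for either group, and they do not say whether the samples of a group came from separate cultures.

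HIF is a pair of proteins, an alpha subunit (*HIF1A* or *EPAS1*, the latter also called HIF-2 alpha) and the beta subunit *ARNT*. When oxygen is present, prolyl hydroxylases such as those encoded by *EGLN1* and *EGLN3* mark the alpha subunit, which the VHL ubiquitin ligase then directs to the proteasome. When oxygen falls, the alpha subunit persists, joins ARNT and activates genes of angiogenesis, acid export, glycolysis and mitochondrial turnover. In glioblastoma the pathway is known for its activity around necrotic tissue and for driving VEGF. Much of this control acts on protein stability, which counts of mRNA do not measure.

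The libraries held between 21241984 and 32590479 counts. Levels below are counts-per-million values (CPM) scaled with the TMM factors of edgeR, which ranged from 0.942 to 1.09, and 3 reads corresponded to between 0.0844 and 0.138 CPM. That floor covers counting error only, since reads carry no molecular identifiers and PCR copies count as reads. Of 10 markers of glioma and astroglial cells, 9 had reads in at least 1 sample and *AQP4* had none, and *SOX2* and *S100B* had no read in control cells and at most 5 reads with chaetocin, and *GFAP* was between 0.46 and 1.02 CPM. The summed level of the 10 lay between 4977 and 5650 CPM in control samples and between 2045 and 3302 CPM in chaetocin samples, most of it from *VIM* and *CD44*, and all 7 markers tested were below both controls in both chaetocin samples with a median log2 fold change of -0.80. Of these 7, edgeR called 1 as lower, 5 were lower at an unadjusted p under 0.05, and DESeq2 called 3. Of all genes tested, 26.0% were below both controls in both chaetocin samples. As lower, edgeR called 0.743% and DESeq2 2.93% of all genes, and 9.43% were lower at the unadjusted threshold. The summed level of 8 leukocyte markers was 0.287 and 0.418 CPM in control samples and 1.33 and 2.11 CPM with chaetocin, with *CD3E*, *AIF1* and *TYROBP* at 0 in every sample and *PTPRC* called as higher by edgeR. For 4 endothelial markers with an entry the sum was 5.04 and 5.60 CPM in control samples and 6.89 and 6.28 CPM with chaetocin, and of the 2 tested 1 was higher at an unadjusted p under 0.05. For 5 epithelial markers it was 2.99 and 2.33 CPM in control samples and 4.73 and 4.14 CPM with chaetocin, and of the 3 tested 2 were higher at an unadjusted p under 0.05. Of all 16416 genes tested, 1791 were higher at that threshold and edgeR called 182 as higher. The part of these marker differences in the results below was not tested.

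HIF binds DNA at a short core, written ACGTG or GCGTG, which together form the centre of the hypoxia response element. Promoter windows of 250 bases before and 50 bases after the start were available from RefSeq on GRCh38.p14 for 8 of the 10 genes, in 9 entries since *HIF1A* has a pair of starts. *VEGFA* and *NDRG1* had no entry. On either strand ACGTG was found for 3 genes (*EGLN1*, *CA9* and *BNIP3*) and GCGTG for 4 genes (*HIF1A*, *EPAS1*, *ADM* and *BNIP3*), and neither was found for *ARNT* or *EGLN3*. Of the *HIF1A* starts, 1 had a match and the other had none. Among all 35116 promoter windows, 21.4% held ACGTG, 36.5% held GCGTG and 48.4% held either, so that a match in such a window is common. The stretches around the matches are shown to set the 3 regulators that carry the core beside the targets that do. Capitals mark ACGTG or GCGTG, or their complements CACGT and CACGC where the core lies on the other strand. In *BNIP3* both strands of CACGTG match ACGTG at the same place.
CA9 (chr9:35673897-35673926, plus strand): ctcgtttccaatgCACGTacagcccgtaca
BNIP3 (chr10:131982015-131982074, minus strand): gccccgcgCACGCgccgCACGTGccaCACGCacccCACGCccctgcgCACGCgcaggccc
ADM (chr11:10304959-10304988, plus strand): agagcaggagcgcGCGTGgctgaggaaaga
EGLN1 (chr1:231422288-231422317, minus strand): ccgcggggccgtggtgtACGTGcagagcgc
EPAS1 (chr2:46297277-46297306, plus strand): ggggcctgccggcGCGTGcccgcccacaca
HIF1A (chr14:61695281-61695340, plus strand): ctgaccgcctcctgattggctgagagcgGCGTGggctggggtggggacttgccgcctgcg
The core began 18 bases before the start in *CA9*, 13 in *EGLN1*, 101 in *ADM*, 117 in *EPAS1* and 204 before the *HIF1A* start that had a match. In *BNIP3* 6 matches lay between 104 and 143 bases before it. These are matches of letters and not measured binding sites.

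Chaetocin-treated cells had less *HIF1A* and *NDRG1* mRNA than control cells in both samples, but none of the 10 genes passed an adjusted p-value of 0.05 with edgeR's quasi-likelihood test. At an unadjusted p under 0.05, 2 of the 10 were lower and 0 were higher, where 9.43% of all genes tested were lower and 1791 of 16416 were higher. Across all genes, 1.85% were called at the adjusted threshold, and 0.743% were called as lower. With DESeq2, which the study's methods name, 1 of the 10 was called as lower, *HIF1A* (adjusted p = 0.00414), where 2.93% of all genes were called as lower. All 10 log2 fold changes lay below 0, from -1.09 for *NDRG1* to -0.003 for *ADM*, with a median of -0.39 where the median of all genes tested was 0.008. With upper-quartile or library-size scaling *ARNT* and *ADM* lay above 0. Without chaetocin sample 2, 5 of the 10 lay below 0 with a median of -0.012, and without control sample 1, 7 of the 10 with a median of -0.080. Without chaetocin sample 1 the median was -0.88. Both chaetocin samples were below both control samples for 4 of the 10 genes (*HIF1A*, *EPAS1*, *ARNT* and *NDRG1*), where 26.0% of all genes showed this pattern. For 0 of the 10 were both above, where 4393 of all 16416 genes tested were. At this number of samples the intervals were wide, and a change that did not pass the test is not shown to be absent.

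**Figure D1:**
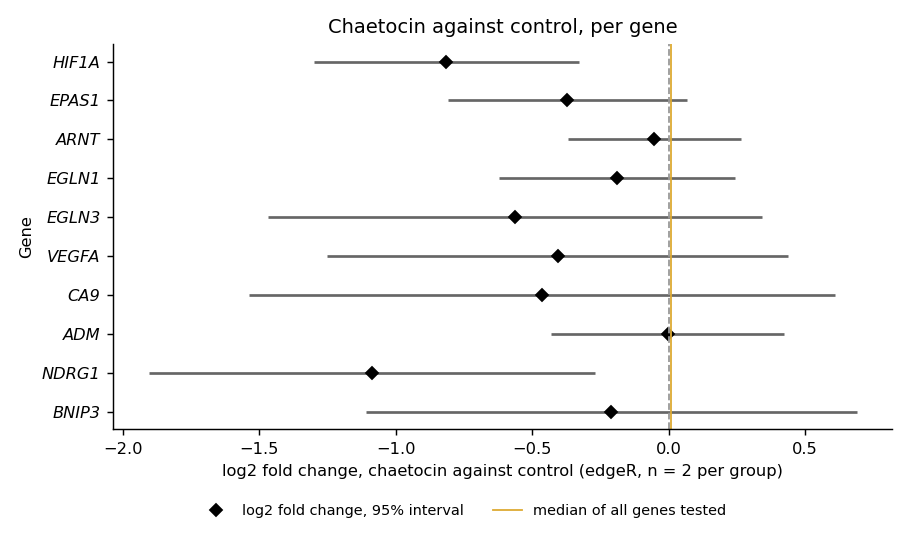
log2 fold change of each of the 10 genes with chaetocin against control (diamonds) with the 95% interval from edgeR's quasi-likelihood fit (lines), n = 2 samples per group. The intervals of *HIF1A* and *NDRG1* lie below 0 and those of the other 8 genes include 0.

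*HIF1A* (ENSG00000100644, chromosome 14 of GRCh38, 61695513 to 61748259) encodes the alpha subunit that most cells express. Its level was 663 and 650 CPM in the control samples and 445 and 303 CPM in the chaetocin samples. Both chaetocin samples were low, at 67.7% and 46.1% of the control mean, and the control samples were close together. The log2 fold change was -0.81 (standard error 0.21, 95% interval -1.30 to -0.33, adjusted p = 0.0872 in edgeR). In all, 3.63% of all genes tested had a log2 fold change as low as this or lower. With every sample kept, *HIF1A* was called without a filter on low counts, with DESeq2 and with the replicate number as a block. These fits called 2.39%, 2.93% and 6.41% of all genes as lower, against 0.743% in the fit reported. Over 12 fits of the same samples, the alternatives included, the log2 fold change of *HIF1A* lay between -1.12 and -0.57. *EPAS1* (ENSG00000116016, chromosome 2, 46293667 to 46386703) encodes the alpha subunit first known from endothelium. It was at 588 and 618 CPM in control cells and at 531 and 402 CPM with chaetocin, so that the groups did not overlap while chaetocin sample 1 was at 88.1% of the control mean. The log2 fold change was -0.37 (standard error 0.19, interval -0.81 to 0.07, adjusted p = 0.32). It was -0.19 without chaetocin sample 2 and -0.58 without chaetocin sample 1, where *EPAS1* was called (adjusted p = 0.015 from edgeR) as were 17.0% of all genes. *ARNT* (ENSG00000143437, chromosome 1, 150809705 to 150876768), the shared partner of the alpha subunits, was at 76.7 and 72.5 CPM in control cells and at 72.3 and 71.7 CPM with chaetocin. Its chaetocin samples were at 96.9% and 96.1% of the control mean, the interval of the log2 fold change ran from -0.37 to 0.27, and the adjusted p was 0.875.

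The RNAs that the annotation places across *HIF1A* had few reads. *HIF1A-AS1* and *HIF1A-AS2*, on the opposite strand, had at most 5 and at most 10 reads in a sample, *AL137129.1* on the same strand had none, and the pseudogene *HIF1AP1* had 2 reads in 1 sample. Whether counting used the strand is not stated. These reads were few beside the 9681 to 18692 reads on *HIF1A* itself.

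The prolyl hydroxylases were less abundant than the alpha subunits. *EGLN1* (ENSG00000135766, chromosome 1, 231363751 to 231425044), the main oxygen-sensing hydroxylase of most cells, was at 127 and 110 CPM in control cells and at 122 and 86.6 CPM with chaetocin. Chaetocin sample 1 lay between the control samples and chaetocin sample 2 lay below both, and the log2 fold change was -0.19 with an interval from -0.62 to 0.25. It was 0.029 without chaetocin sample 2 and -0.45 without chaetocin sample 1, where *EGLN1* was called (adjusted p = 0.0399 from edgeR). *EGLN3* (ENSG00000129521, chromosome 14, 33924231 to 34462774) is itself induced by HIF in many cells. Its level was 11.3 and 4.73 CPM in control cells and 6.30 and 4.59 CPM with chaetocin, from 136 to 276 reads a sample. The control samples of *EGLN3* differed by more than the groups did, and its log2 fold change of -0.56 had an interval from -1.47 to 0.34. With control sample 1 left out it was 0.18. *SPTSSA*, which overlaps the span of *EGLN3* on the same strand, shares 0 exonic bases with it. *SPTSSA* had 938 and 1041 reads in control cells and 1255 and 1482 with chaetocin (log2 fold change 0.41, adjusted p = 0.259 from edgeR).

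Among the 5 targets, *NDRG1* differed most between the groups. *NDRG1* (ENSG00000104419, chromosome 8, 133237171 to 133302022) encodes a stress-responsive protein that is widely used as a marker of hypoxia. Its level was 1269 and 786 CPM in control cells and 651 and 316 CPM with chaetocin. Both chaetocin samples were below both control samples, at 63.4% and 30.8% of the control mean, and each group also spread widely within itself. The log2 fold change was -1.09 (standard error 0.36, interval -1.91 to -0.27, adjusted p = 0.144 from edgeR), and 1.56% of all genes tested were as low or lower. With every sample kept, *NDRG1* was called without a filter on low counts and with the replicate number as a block. These fits called 2.39% and 6.41% of all genes as lower, against 0.743% in the fit reported. Over 12 fits of the same samples the log2 fold change of *NDRG1* lay between -1.70 and -0.67.

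The other targets overlapped between the groups, and chaetocin sample 1 lay within or above the control range in each. *VEGFA* (ENSG00000112715, chromosome 6, 43770184 to 43786487), the growth factor of blood vessels, was at 1298 and 936 CPM in control cells and at 1180 and 505 CPM with chaetocin. *CA9* (ENSG00000107159, chromosome 9, 35673856 to 35681159), a carbonic anhydrase of the cell surface that helps to export acid, was at 357 and 216 CPM in control cells and at 305 and 111 CPM with chaetocin. In both genes chaetocin sample 2 was the lowest of the 4 samples, at 45.2% of the control mean for *VEGFA* and 38.7% for *CA9*, and chaetocin sample 1 was at 106% of it for both. The log2 fold change was -0.41 for *VEGFA* (standard error 0.37, adjusted p = 0.581 from edgeR). It was -0.46 for *CA9* (standard error 0.45, adjusted p = 0.616 from edgeR). Without chaetocin sample 2 these values were 0.07 and 0.08, and without chaetocin sample 1 they were -1.14 and -1.37.
*BNIP3* (ENSG00000176171, chromosome 10, 131966455 to 131982013), a mitochondrial protein that promotes the removal of mitochondria, was at 655 and 445 CPM in control cells and at 671 and 280 CPM with chaetocin. Here chaetocin sample 1 was the highest of the 4 samples and chaetocin sample 2 the lowest, and the log2 fold change was -0.21 with an interval from -1.11 to 0.69. It was 0.28 without chaetocin sample 2 and -0.97 without chaetocin sample 1. *ADM* (ENSG00000148926, chromosome 11, 10304680 to 10307397) encodes adrenomedullin, a peptide that widens blood vessels. It was at 98.8 and 70.1 CPM in control cells and at 88.2 and 80.3 CPM with chaetocin, with both chaetocin samples inside the control range and an interval of -0.43 to 0.42.

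**Figure D2:**
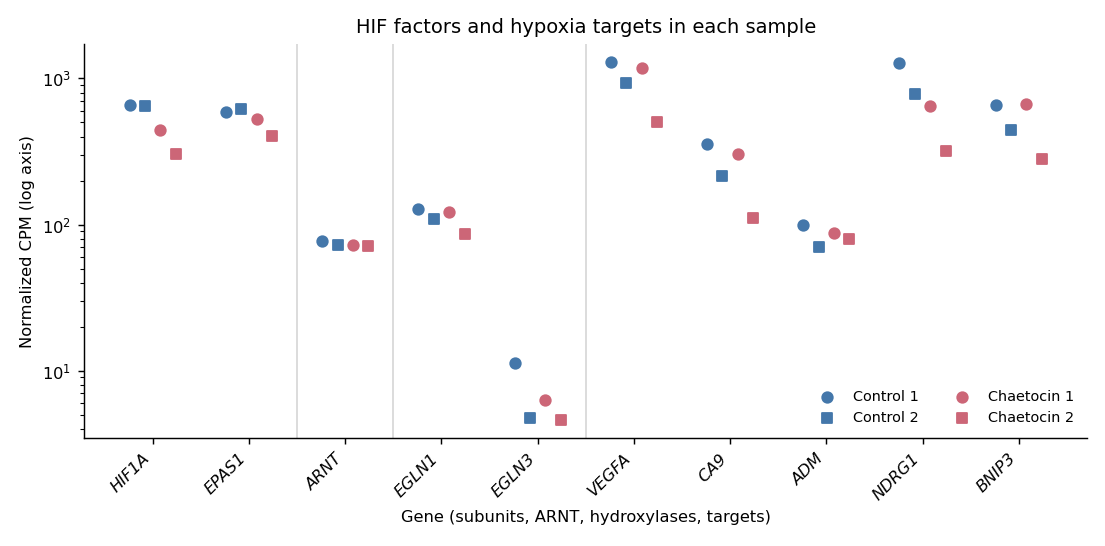
Normalized CPM (log axis) of the 10 genes in each of the 4 samples, grouped from left to right into alpha subunits, *ARNT*, hydroxylases and targets. Chaetocin sample 2 (red squares) is the lowest sample in every gene except *ADM*.

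Some of these reads cannot be placed with certainty. *CA9* shares 643 exonic bases with *ARHGEF39* on the opposite strand, and the reads listed for *ARHGEF39* (298 and 270 in control cells, 460 and 668 with chaetocin) had a log2 fold change above 0 (0.89, adjusted p = 0.0655 from edgeR). The annotation lists 39 pseudogenes named after *BNIP3* that are in the tables, of which 10 had a read and *BNIP3P1* had most. Their reads summed to between 8.36% and 11.3% of the reads on *BNIP3* in each sample, with 1691 and 1444 reads in control cells and 1642 and 833 with chaetocin. The sum was thus also lowest in chaetocin sample 2.

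Set against the control mean, the 2 chaetocin samples differed in where these genes lay. Chaetocin sample 1 was below both control samples in 4 of the 10 genes and chaetocin sample 2 in 9 of the 10, all but *ADM*. Over all genes tested, 6535 of 16416 lay below both controls in the first of these samples and 6714 in the other. The median shift over the 10 genes on the log2 scale was -0.003 for chaetocin sample 1 and -0.81 for sample 2, where that of all genes tested was 0.009 in each. Over the 5 targets the median shift was 0.10 and -1.13. For *HIF1A* the shifts were -0.56 and -1.12, and for *NDRG1* they were -0.62 and -1.66, so that these genes were low in each chaetocin sample.

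**Figure D3:**
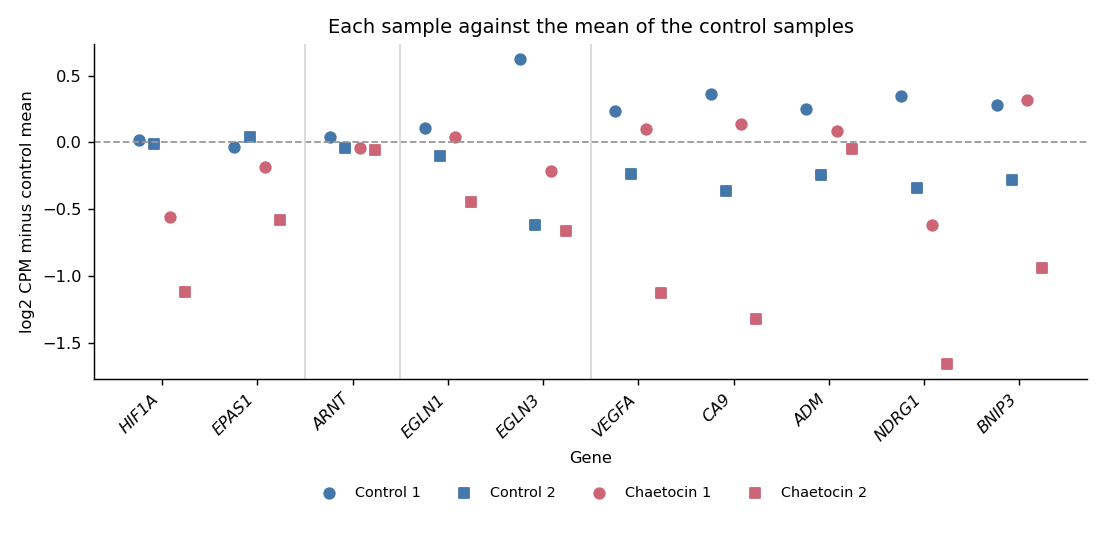
log2 CPM of each sample minus the mean of the control samples, for the 10 genes. Control samples are blue and chaetocin samples red. Chaetocin sample 1 lies near or within the control range for all genes but *HIF1A* and *NDRG1*, and to a lesser extent *EPAS1*, while chaetocin sample 2 reaches -1.66 for *NDRG1*.

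The genes also differed between samples of the same group. Control sample 1 was above control sample 2 in 9 of the 10 genes, all but *EPAS1*, with a median difference of 0.48 on the log2 scale. Chaetocin sample 1 was above chaetocin sample 2 in 10 of the 10, with a median of 0.52. Over all genes tested the shares were 48.8% and 49.8%, and the medians were -0.006 and -0.003. In the 5 targets the median difference was 0.56 between the control samples and 1.22 between the chaetocin samples. *VEGFA* differed by 0.47 and 1.22, *CA9* by 0.73 and 1.46 and *BNIP3* by 0.56 and 1.26. Each of these differences within a group was larger in size than the log2 fold change of the same gene between the groups. *HIF1A* differed by 0.03 between the control samples and by 0.56 between the chaetocin samples. What these differences within groups came from was not tested.

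Compared per length of exon, in CPM per kilobase (RPKM), the order of levels in control cells was *CA9*, *HIF1A*, *NDRG1*, *BNIP3*, *EPAS1*, *VEGFA*, *ADM*, *EGLN1*, *ARNT* and *EGLN3*. The mean level was 172 ± 59.8 RPKM (SD, n = 2) for *CA9*, 128 ± 1.74 RPKM for *HIF1A* and 82.6 ± 2.96 RPKM for *EPAS1*. It was 11.5 ± 0.46 RPKM for *ARNT*, the partner that both alpha subunits need, and 1.09 ± 0.63 RPKM for *EGLN3*. The ranges of the control samples overlapped between each pair of neighbours from *HIF1A* to *VEGFA*, so that the order within each of these pairs was not resolved. From *VEGFA* downwards, and between *CA9* and *HIF1A*, the ranges of neighbours were apart. The order rests on the length used. With the longest transcript in place of all exons, *NDRG1* was highest at 258 RPKM, *BNIP3* was at 179 RPKM and *CA9* at 177 RPKM.

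The rest of the pathway was followed in lists of known members. Of 12 other HIF subunits and regulators, 0 were called, and 8 lay below 0 with a median of -0.19 on the log2 scale, which was -0.11 with upper-quartile and -0.024 with library-size scaling. At an unadjusted p under 0.05, 2 were lower and 0 higher, and DESeq2 called *CITED2* as lower. Of all genes, 9.43% were lower at that unadjusted threshold, and DESeq2 called 2.93% as lower. *CITED2*, which competes with HIF for the coactivators p300 and CBP, was at 86.8 and 80.7 CPM in control cells and at 63.5 and 36.6 CPM with chaetocin (log2 fold change -0.75, adjusted p = 0.139 from edgeR). *CUL2*, the scaffold of the VHL ligase, was at 134 and 130 CPM against 100.3 and 98.9 CPM. *EGLN2*, the remaining prolyl hydroxylase of the family, was at 10.2 and 8.63 CPM against 5.97 and 7.68 CPM. The log2 fold change of *CITED2* was -0.41 without chaetocin sample 2 and -1.19 without chaetocin sample 1. In these 3 genes, named for their small p, the groups did not overlap, and none passed the adjusted threshold in edgeR. Over the list, both chaetocin samples were below both controls in 3 of 12 genes, where 26.0% of all genes tested were.

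Of 21 glycolytic targets of HIF, 1 was called, and it was lower. This was *SLC2A3*, the glucose transporter GLUT3, at 139.4 and 138.8 CPM in control cells and 59.7 and 57.8 CPM with chaetocin (adjusted p = 0.0168 from edgeR). It fell by a similar amount in each chaetocin sample, unlike the targets above. At an unadjusted p under 0.05, 2 of the 21 were lower and 0 higher, where 9.43% of all genes tested were lower. The median of the list was -0.21, with 17 genes below 0, and it was 0.05 without chaetocin sample 2, -0.062 without control sample 1, -0.39 without control sample 2 and -0.62 without chaetocin sample 1. Against the control mean the list shifted by a median of 0.09 for chaetocin sample 1 and by -0.61 for chaetocin sample 2. Control sample 1 was above control sample 2 in 20 of 21 genes and chaetocin sample 1 above chaetocin sample 2 in 21 of 21. Besides *SLC2A3*, the genes with the smallest p were *HK1* and *HK2*, hexokinases that start glycolysis, and *PGK1*, phosphoglycerate kinase. *HK1* was at 529 and 542 CPM against 430 and 363 CPM, and *HK2* at 446 and 422 CPM against 380 and 279 CPM. *PGK1* was at 2281 and 1540 CPM against 1577 and 1110 CPM, and its groups overlapped.

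Of 30 further HIF targets, 28 were tested and 0 were called, with 26 below 0 and a median of -0.44. *CXCR4* and *EPO* had at most 2 reads in a sample and were not tested. At an unadjusted p under 0.05, 7 were lower and 0 higher, and DESeq2 called 4 as lower, *LOXL2*, *CA12* and, named here after their values were seen, *PLOD2* and *TFRC*. Of all genes, 9.43% were lower at that unadjusted threshold, and DESeq2 called 2.93% as lower. *CA12*, a surface carbonic anhydrase like *CA9*, was at 665 and 558 CPM in control cells and at 416 and 273 CPM with chaetocin (log2 fold change -0.83, adjusted p = 0.0978 from edgeR). *LOXL2*, which cross-links collagen, was at 668 and 417 CPM against 369 and 213 CPM. *ERO1A*, an oxidase of the endoplasmic reticulum, was at 189 and 175 CPM against 139 and 105 CPM. The groups did not overlap in any of these 3 genes, which were named for their small p. Over the list, both chaetocin samples were below both controls in 9 of 28 genes, where 26.0% of all genes tested were. The median shift of the list was -0.11 for chaetocin sample 1, with 10 of 28 genes below both controls, and -0.80 for chaetocin sample 2, with 26 of 28. Over all genes tested, 6535 of 16416 lay below both controls in chaetocin sample 1 and 6714 in chaetocin sample 2. Its median log2 fold change was -0.14 without chaetocin sample 2, -0.22 without control sample 1 and -0.80 without chaetocin sample 1. Control sample 1 was above control sample 2 in 27 of 28 genes and chaetocin sample 1 above chaetocin sample 2 in 25 of 28.

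**Figure D4:**
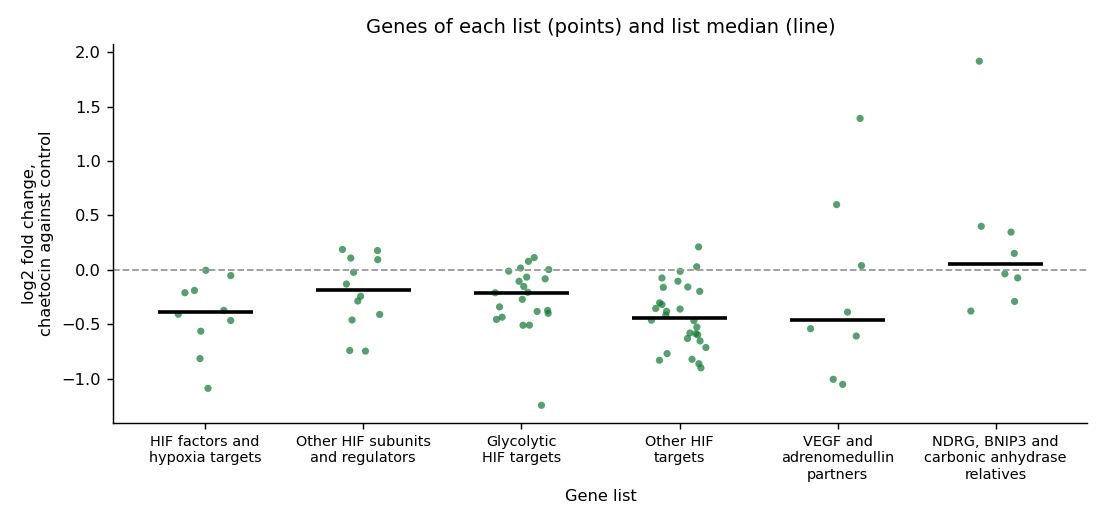
log2 fold change with chaetocin against control for the tested genes of each list (points) and the list median (lines), n = 2 samples per group. The medians are -0.39 for the 10 genes described here, -0.19, -0.21, -0.44 and -0.46 for the next lists and 0.06 for the relatives of *NDRG1*, *BNIP3* and the carbonic anhydrases.

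For the partners of VEGF and adrenomedullin, 8 of 12 genes were tested and 0 were called, with a median of -0.46, which was -0.22 without chaetocin sample 2 and -0.24 without control sample 1. At an unadjusted p under 0.05, 4 were lower and 1 was higher, and DESeq2 called *KDR* and *NRP1* as lower. Of all genes, 9.43% were lower and 1791 of 16416 were higher at that unadjusted threshold, and DESeq2 called 2.93% as lower. *NRP1*, a co-receptor of VEGF, was at 878 and 803 CPM in control cells and at 500.4 and 311 CPM with chaetocin (log2 fold change -1.05, adjusted p = 0.0655 from edgeR). *KDR*, the main signalling receptor of VEGF, was low in these cells, at 8.52 and 13.0 CPM against 5.28 and 5.46 CPM (adjusted p = 0.0853 from edgeR). *NRP2* was at 192 and 214 CPM against 131 and 148 CPM. Both chaetocin samples were below both control samples in each of these receptors, which were named for their small p, whereas *VEGFA* itself overlapped. *FLT4*, another VEGF receptor and named here after its values were seen, lay the other way (log2 fold change 1.39). It was at 0.41 and 0.90 CPM in control cells and at 1.70 and 1.80 CPM with chaetocin. Of the 8 tested genes, 4 were below both controls in both chaetocin samples and 1 was above. Of all genes tested, 26.0% were below. *RAMP2* and *RAMP3*, which turn the receptor *CALCRL* into an adrenomedullin receptor, had 0 reads in every sample, which allows up to 3 reads or 0.0844 to 0.138 CPM.

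Among 8 relatives of *NDRG1*, *BNIP3* and the carbonic anhydrases, 1 was called. *CA2*, a cytosolic carbonic anhydrase, rose from 1.31 and 2.09 CPM to 4.73 and 8.11 CPM (log2 fold change 1.92, adjusted p = 0.0454 from edgeR). When at least 10 counts were required in every sample its adjusted p was 0.0536. *CA13* was at 16.1 and 17.1 CPM against 21.7 and 22.1 CPM. *NDRG3* was at 147 and 159 CPM against 113 and 122 CPM, and *NDRG4* at 14.2 and 15.1 CPM against 14.2 and 18.3 CPM. The median of this list was 0.06, and -0.070 without chaetocin sample 2.

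**Figure D5:**
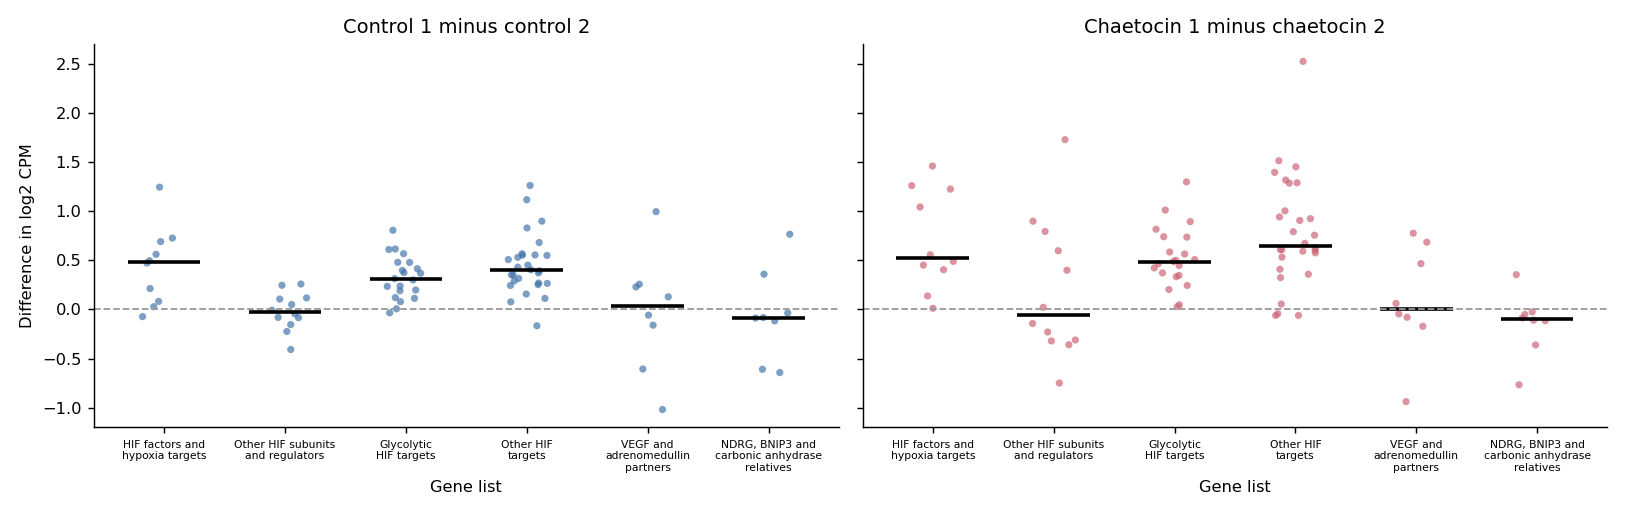
Difference in log2 CPM between the samples of one group for the tested genes of each list (points) and the list median (lines), control samples on the left and chaetocin samples on the right. The medians of the 10 genes described here are 0.48 and 0.52, and those of the glycolytic and the other HIF targets are 0.31 and 0.40 between control samples and 0.49 and 0.65 between chaetocin samples.

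The genes whose profile over the 4 samples was nearest to that of *HIF1A* were *PREX1*, *LPCAT2* and *RPL34*. The distance between log2 profiles, each centred on its own mean, was 0.04, 0.06 and 0.07 among 13150 other protein-coding genes tested. *PREX1* was at 215 and 209 CPM in control cells and at 141 and 94.4 CPM with chaetocin. With 4 samples such a likeness is a description only.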

How the data were processed

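RNA of 2 control and 2 chaetocin samples was sequenced as single-end 50 bp reads after poly(A) selection and 15 cycles of PCR. The authors deposited raw counts per Ensembl gene, 1 table per sample, without normalization. The submitters' processing notes list cutadapt, TopHat2, SAMtools and GRCh37; the counting tool, annotation and strand setting are not given in the sources used here. Symbols, positions and exon lengths came from GENCODE release 29 on GRCh38, which held 52338 of 57905 identifiers, so lengths approximate the authors' annotation.

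On these counts, edgeR's quasi-likelihood method (R 4.3.3, edgeR 4.0.16, filterByExpr, TMM, robust fit, no block) was fitted on all 16416 genes kept, with Benjamini-Hochberg adjustment and a threshold of 0.05. Standard errors and 95% intervals were derived from the log2 fold change, its F statistic and the total degrees of freedom. Shifts of single samples used log2 CPM with a prior count of 2. On counts simulated with the same dispersion for every gene, the test recovered 50% of 100 genes changed 2-fold and 97% of 100 changed 4-fold. Of its 152 calls there, 5 were false. The members, lists and alternatives were chosen with earlier results of these data known. Named genes were all members, and in each pathway list every called gene and the 3 others with the smallest p. Genes overlapping a member or named as its pseudogene were added, as were the 3 nearest profiles to the member with the smallest p. Alternatives were other scaling, other filters, DESeq2 1.42.0, a replicate block and leaving out each sample. As the samples of a group are not stated to be separate cultures, p-values measure the spread between these samples, which may be technical.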

Additional observations from a re-analysis of the deposited data

How the results depend on the processing

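The number of members called at an adjusted p under 0.05 was 0 with RLE, upper-quartile and library-size scaling and where each sample needed 10 counts, as in the fit reported. It was 2 without a filter on low counts (*HIF1A* and *NDRG1*), 1 with DESeq2 (*HIF1A*) and 3 with the replicate number as a block (*HIF1A*, *CA9* and *NDRG1*). Of all genes, these fits called 2.39%, 2.93% and 6.41% as lower, against 0.743% in the fit reported. With a sample left out it ranged from 0 to 6: 6 without chaetocin sample 1 (*HIF1A*, *EPAS1*, *EGLN1*, *VEGFA*, *NDRG1* and *BNIP3*), 1 without chaetocin sample 2 (*HIF1A*), 1 without control sample 2 (*NDRG1*) and 0 without control sample 1. In that order these fits called 9.48%, 5.59%, 0.868% and 0.538% of all genes as lower, the direction of each member called. The lone sample that remains in a group is then assumed to vary like the others. *HIF1A* stayed below 0 under every alternative run, from -1.12 to -0.57, and *NDRG1* from -1.70 to -0.67.

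With a sample left out, the log2 fold change ranged from -0.58 to -0.19 for *EPAS1*, from -0.45 to 0.029 for *EGLN1*, from -1.07 to 0.18 for *EGLN3*, from -1.14 to 0.071 for *VEGFA*, from -1.37 to 0.082 for *CA9*, from -0.24 to 0.25 for *ADM*, from -0.97 to 0.28 for *BNIP3* and from -0.052 to 0.32 for *NDRG4*. Of the values on the other side of 0, those of *EGLN1*, *VEGFA*, *CA9* and *NDRG4* came without chaetocin sample 2, that of *EGLN3* without control sample 1, and those of *ADM* and *BNIP3* without either of these. Library-size scaling moved the median of all genes by 0.16 and gave 0.11 for *ARNT* and 0.16 for *ADM*, and upper-quartile scaling gave 0.024 and 0.070. *ADM* was at 0.018 when every sample needed 10 counts and at 0.016 with the replicate block.

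Over all genes, 182 were called higher and 122 lower. The numbers were 360 and 73 with library-size scaling, 787 and 759 without a filter, 114 and 80 where each sample needed 10 counts, 385 and 481 with DESeq2, and 1036 and 1053 with the replicate block. With a sample left out they ranged from 215 to 1332 and from 97 to 1673. The share of calls that were higher was 59.9%, against 73.7% with upper-quartile and 83.1% with library-size scaling. Same-numbered samples deviated together across genes with r = 0.123, which for 2 pairs shows only a shared number.

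The median of the other HIF subunits and regulators was -0.11 with upper-quartile and -0.024 with library-size scaling, and from -0.18 to -0.13 with a sample left out. That of the partners of VEGF and adrenomedullin ranged from -0.57 to -0.22 with a sample left out. That of the relatives of *NDRG1*, *BNIP3* and the carbonic anhydrases was 0.23 with library-size scaling and ranged from -0.070 to 0.10 with a sample left out. The median of the members ranged from -0.88 to -0.01 that of the glycolytic targets from -0.62 to 0.05 and that of the other HIF targets from -0.80 to -0.14 with a sample left out. With the longest transcript, levels in control cells were 166 RPKM for *HIF1A*, 117 for *EPAS1*, 15.3 for *ARNT*, 2.82 for *EGLN3*, 44.7 for *ADM*, 258 for *NDRG1* and 179 for *BNIP3*. A prior count of 0.5 moved no shift of a single sample by more than the spread of the control samples. Beyond fewer samples or genes, or another length, the cause was not tested.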
